A study of Mus musculus with 6 samples.

Results

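Transcripts of the matrix metalloproteases (MMP), the ADAM and ADAMTS proteases and the tissue inhibitors of metalloproteases (TIMP) were followed in mouse cumulus granulosa cells. Members were all genes whose symbol starts with Mmp, Adam, Adamts or Timp and a digit, other than Adamts1 and Adamts4, with a base mean above 3.3 normalized counts. This gave 43 members among 79 rows of these families and 14835 tested genes, namely 12 MMP, 14 ADAM, 13 ADAMTS and 4 TIMP genes. The base mean is the mean over the 6 libraries of the read count after division by size factors, which put libraries of unequal depth on one scale. The member rule uses no fold change, but it was set with earlier results of these data known. Adamts1 and Adamts4, left out by name, were both among the genes called higher, as given below.

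The cells came from Kun-Ming mice, an outbred stock, and were compared between 3 libraries labelled Atg5-KD and 3 libraries labelled control. The Atg5-KD cells were transfected with short hairpin RNAs against Atg5, which encodes a protein needed to build autophagosomes. The sources used here state neither what control cells received, nor the age of the mice, nor whether the 3 libraries of each label are separate cultures or animals. P-values therefore reflect library-to-library spread only, and that spread may be technical.

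Metalloproteases of these families cut proteins with a zinc ion in the active site. MMPs are made as inactive precursors and cut collagens, laminin, elastin and other matrix proteins. Most ADAM proteases sit in the plasma membrane and release the outer part of growth factors, receptors and adhesion molecules, whereas ADAMTS proteases are secreted and cut procollagens and proteoglycans. TIMPs bind the active site of MMPs and of some ADAM and ADAMTS proteases. In the ovary these enzymes remodel the follicle wall and the matrix around the oocyte, and an ADAM protease releases the EGF-like ligands by which the ovulatory signal reaches cumulus cells.

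Promoter windows of 4 members are shown because these members carry the contrast described here: Mmp11 and Mmp12 were the most abundant MMP and the MMP with the lowest fold change, and Timp1 and Timp4 were the TIMPs called higher. Each window runs 5′ to 3′ from 250 bases before to 50 bases after the transcript start in RefSeq (GRCm38.p6). Capitals mark matches, on either strand, to the AP-1 site TGANTCA, the STAT site TTCNNNGAA, the GC box GGGCGG or the TATA box TATAAA.
Mmp11, chr10:75932453-75932752, minus strand: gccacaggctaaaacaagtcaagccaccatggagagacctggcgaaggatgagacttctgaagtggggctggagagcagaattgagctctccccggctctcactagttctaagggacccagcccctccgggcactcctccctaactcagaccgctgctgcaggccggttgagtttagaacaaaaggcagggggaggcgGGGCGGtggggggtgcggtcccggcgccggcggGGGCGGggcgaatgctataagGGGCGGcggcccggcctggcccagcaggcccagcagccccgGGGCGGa
Mmp12, chr9:7347124-7347423, plus strand: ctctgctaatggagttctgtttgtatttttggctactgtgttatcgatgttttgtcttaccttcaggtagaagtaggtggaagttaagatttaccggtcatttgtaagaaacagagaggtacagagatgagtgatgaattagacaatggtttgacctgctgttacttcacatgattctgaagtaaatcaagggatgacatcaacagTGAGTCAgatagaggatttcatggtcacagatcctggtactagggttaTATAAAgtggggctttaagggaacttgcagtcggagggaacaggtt
Timp1, chrX:20869916-20870215, plus strand: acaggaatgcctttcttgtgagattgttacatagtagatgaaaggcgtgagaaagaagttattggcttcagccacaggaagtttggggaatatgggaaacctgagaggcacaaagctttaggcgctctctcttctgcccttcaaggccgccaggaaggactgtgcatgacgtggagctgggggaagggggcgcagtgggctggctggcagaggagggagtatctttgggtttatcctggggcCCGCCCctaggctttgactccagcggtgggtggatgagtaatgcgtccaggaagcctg
Timp4, chr6:115252156-115252455, minus strand: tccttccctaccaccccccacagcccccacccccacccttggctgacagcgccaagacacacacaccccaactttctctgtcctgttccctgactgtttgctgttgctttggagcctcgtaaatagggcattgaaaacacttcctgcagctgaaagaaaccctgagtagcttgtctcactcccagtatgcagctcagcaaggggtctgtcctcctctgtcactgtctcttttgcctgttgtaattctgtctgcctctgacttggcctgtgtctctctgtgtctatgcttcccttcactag

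The Mmp11 window holds 4 GC boxes, the Timp1 window 1 GC box, and the Timp4 window none of the motifs. The Mmp12 window shown is 1 of 2 in RefSeq, and holds an AP-1 match 44 bases before the start and a TATA match just after it, while the other Mmp12 window holds no match. No window on chromosome 18, where Adamts19 lies, was used for members. Windows of 25 of the 43 members were used, 29 windows in all. A GC box lies in 62.1% of these windows and in 35.7% of all 32851 RefSeq windows of the same length. An AP-1 match lies in 6.9% of member windows, against 7.81% of all windows, a STAT match in 6.9% against 8.3%, and a TATA match in 3.45% against 13.6%. Shares count windows, and Mmp12, Mmp23 and Adam19 have more than 1 each. The member windows with a STAT match are overlapping windows of Mmp23 that hold the same site. These matches describe letters only.

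Atg5 itself did not check the labels. Its normalized counts were 386, 408 and 396 in the libraries labelled Atg5-KD, against 350, 462 and 430 in control libraries, and the authors' deposited table gave a log2 fold change of -0.06 ± 0.14 (SE, adjusted p = 0.822). The direction of every fold change was read from the order of KO and CTr in the table's title, taken as Atg5-KD over control. Sample titles likewise read ko for the Atg5-KD libraries and ctr for control libraries. The group given to each library with values of its own rests on the same direction. Estimated depth, rounded, was 11300000 to 12900000 reads in libraries labelled Atg5-KD and 16500000 to 17900000 in control libraries. The ribosomal precursor Rn45s took 17.9% of the normalized total in Atg5-KD and 1.17% in control, and scaling to all reads shifted every log2 fold change by -0.30. Of the granulosa markers, Inha, Inhba and Foxl2 had high base means of 30063, 24381 and 1816 in the authors' deposited table, whereas Amh had 6.07 and the aromatase gene Cyp19a1 only 2.34.

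The authors' table holds no values per library, but whole read counts could be recovered from it for members of base mean under 1000, because each base mean is a sum of 6 whole numbers divided by size factors that the table's lowest rows give. All 32 such members gave a set of 6 counts that also returned the deposited fold change, to within 2.1e-06. Mmp2 alone had a further set, whose fold change missed the deposited one by 51.3 times as much. Each size factor was assigned to Atg5-KD or control by the sign of the deposited fold change in those lowest rows. The counts therefore give no separate check of direction. The label numbers of the libraries are not attached to these counts, so libraries are called a, b and c within each group, in order of falling size factor. The other 11 members have estimated group means only, computed from the base mean and fold change and given with no error of their own.

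Of the 43 members, 4 were called higher and 15 lower in Atg5-KD at a Benjamini-Hochberg adjusted Wald p under 0.05 in the authors' deposited table. That is 44.2% of members, and 20.9% of all tested genes were called, 10.4% higher and 10.5% lower. Calls were commoner among abundant genes: at a base mean of 500 or more, 60% of 15 members and 30.7% of 5868 tested genes were called, and under 50, 23.1% of 13 members and 8.56% of 3539 genes. The median log2 fold change was -0.33 over members and 0.00 over all tested genes. Counts by family follow. No MMP rose and 6 of 12 fell, with a family median of -0.48. Among the ADAMTS members none rose and 6 of 13 fell, with a median of -0.46. These counts leave out Adamts1 and Adamts4, which were both called higher. The ADAM family had 2 higher and 2 lower of 14 and a median of -0.08, and the TIMP family 2 higher and 1 lower of 4 and a median of 0.28. Scaled to all reads instead, 2 members were called higher and 23 lower, beside 3.60% of all tested genes higher and 38.7% lower. With a trend on GC content and length removed from the fold changes, 4 members were higher and 11 lower, beside 7.12% of all tested genes higher and 7.16% lower.

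**Figure D1:**
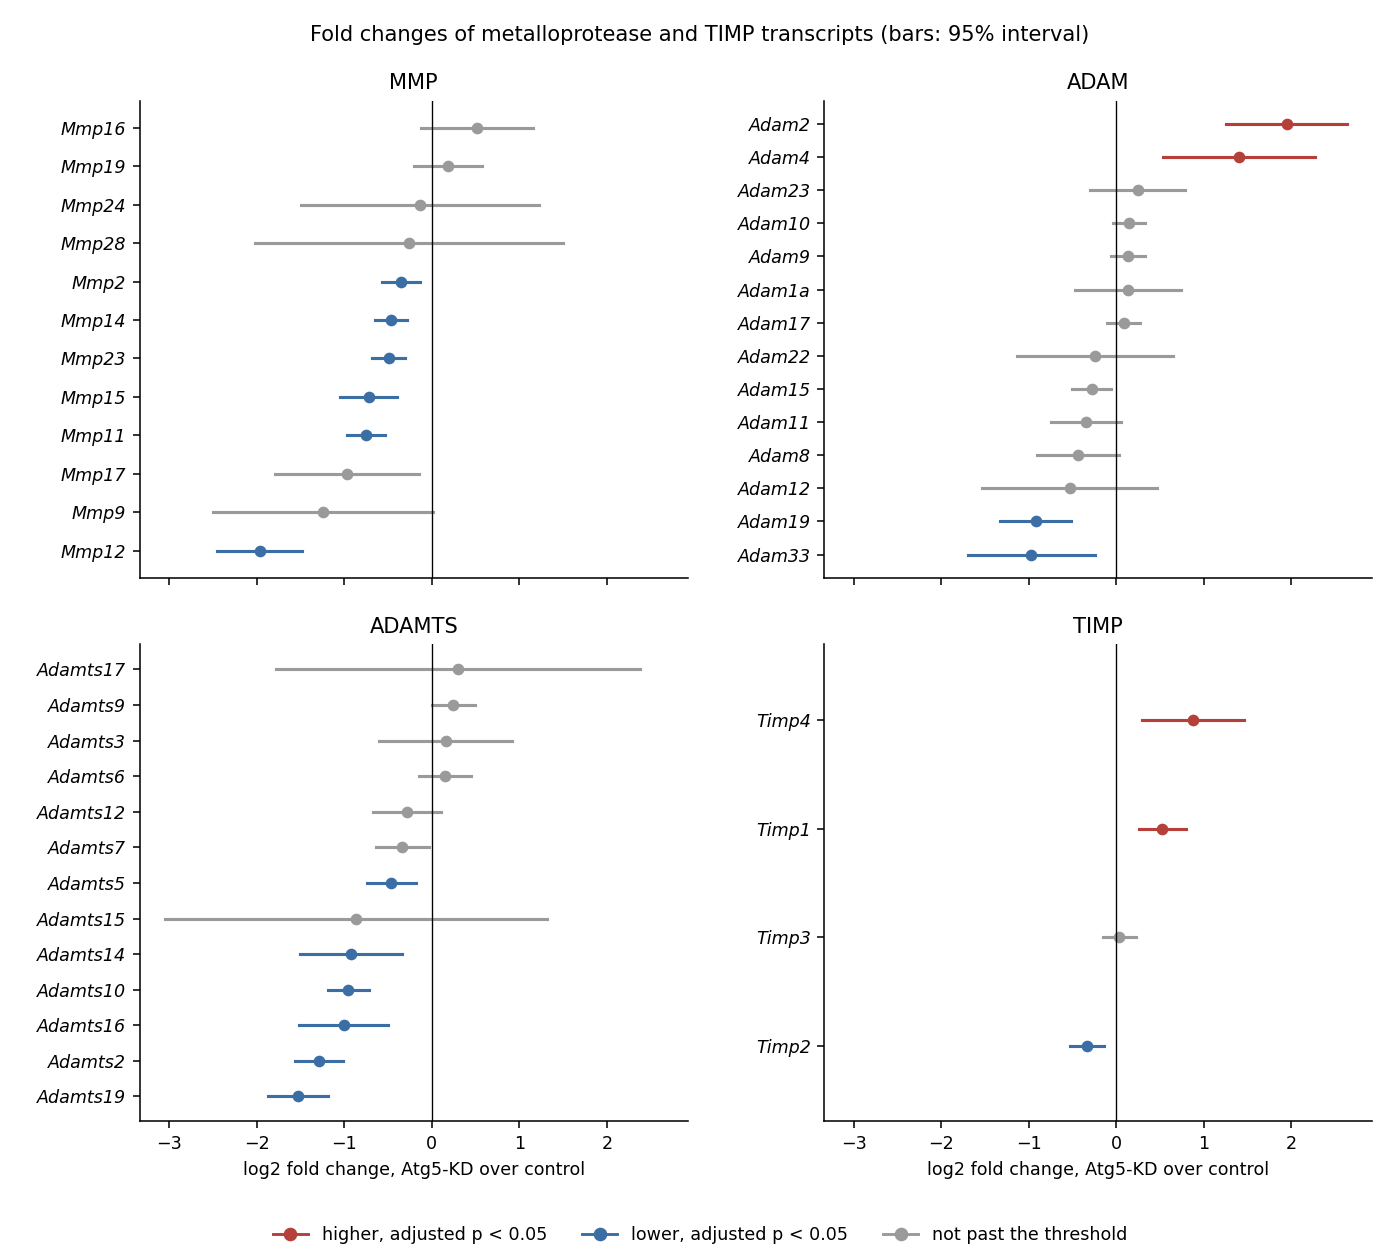
Log2 fold changes (Atg5-KD over control, x axis) of the 43 members by family, as points with 95% intervals from the deposited standard errors. Red and blue mark adjusted p under 0.05. MMP and ADAMTS calls all lie below 0, from -0.35 for Mmp2 to -1.97 for Mmp12, and the 4 calls above 0 are Adam2, Adam4, Timp1 and Timp4. Adamts1 and Adamts4, both called higher, are not members and not drawn.

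**Figure D2:**
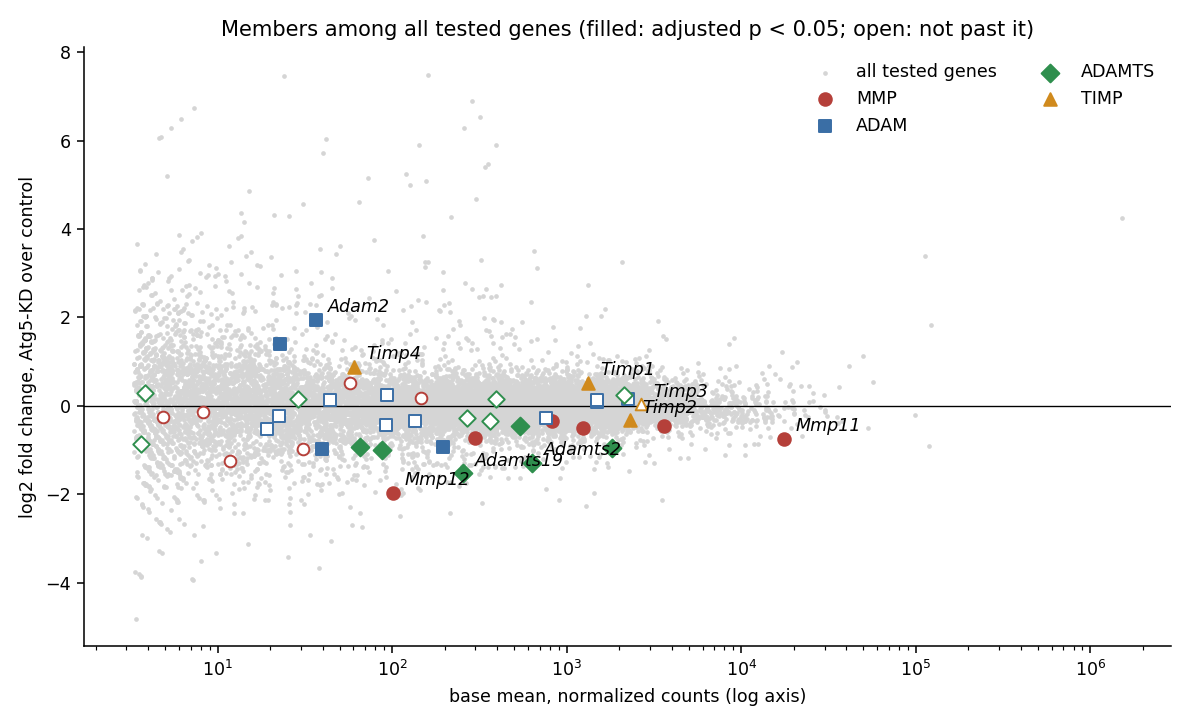
Log2 fold change against base mean (normalized counts, log axis) for all 14835 tested genes in grey and the members by family. Filled symbols passed the threshold; Mmp11, at a base mean of 17514, is the most abundant member, and Mmp12 and Adam2 have the lowest and highest fold changes of the members.

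Mmp11 encodes stromelysin-3, a secreted MMP that furin activates inside the cell, and lies on mm10 chr10:75923222-75936496. It fell to an estimated 13041 normalized counts in Atg5-KD, against 21988 in control. The authors' deposited table put its log2 fold change at -0.75 ± 0.11 (SE, adjusted p = 1.28e-09). With the trend on GC content and length removed, Mmp11 was at -0.57 (adjusted p = 1.03e-05). It made up 73.4% of the summed base means of the 12 MMPs. A stretch of 155 bases, 5.58% of its annotated exons, overlaps the opposite-strand gene Chchd10, and the sources used here do not say whether counting used strand.

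Mmp14 encodes the transmembrane MMP that, together with TIMP2, captures and activates the gelatinase precursor made by Mmp2. Mmp14 was estimated at 3036 normalized counts in Atg5-KD and 4190 in control, with a log2 fold change of -0.46 ± 0.09 (SE, adjusted p = 1.52e-05) in the authors' deposited table. With the trend on GC content and length removed, Mmp14 was at -0.27 (adjusted p = 0.0284). Mmp2 had 739, 777 and 667 normalized counts in the libraries labelled Atg5-KD, against 932, 876 and 974 in control libraries. Every Atg5-KD library was below every control library. The authors' deposited table gave Mmp2 a log2 fold change of -0.35 ± 0.11 (SE, adjusted p = 0.0113). This call was lost without Atg5-KD library c (-0.29) or without control library c (-0.31), and with the trend on GC content and length removed (-0.23, adjusted p = 0.177). Timp2, the inhibitor of the same complex, was also lower and is described with the TIMPs.

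Mmp15, a transmembrane MMP like Mmp14, had 212, 237 and 225 normalized counts in Atg5-KD libraries, against 453, 315 and 343 in control libraries. The groups did not overlap, and control library a stood highest. Its log2 fold change was -0.72 ± 0.17 (SE, adjusted p = 2.32e-04) in the authors' deposited table. With the GC and length trend removed Mmp15 was at -0.50 (adjusted p = 0.0221). Mmp23, whose enzyme is held in the membrane by its N-terminal end and known in human for expression in reproductive tissue, was estimated at 1031 normalized counts in Atg5-KD and 1453 in control. For Mmp23 the authors' deposited table gave a log2 fold change of -0.49 ± 0.10 (SE, adjusted p = 1.15e-05), and with the GC and length trend removed Mmp23 was at -0.28 (adjusted p = 0.0349).

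Mmp12 encodes the macrophage metalloelastase, and had the lowest log2 fold change of all members, -1.97 ± 0.25 (SE, adjusted p = 2.87e-13) in the authors' deposited table. It had 32, 40 and 22 reads in the libraries labelled Atg5-KD, against 197, 244 and 196 reads in control libraries. Scaled by size factor these were 39.8, 51.0 and 31.3 normalized counts in Atg5-KD, against 143.8, 182.1 and 154.5 in control, so the highest Atg5-KD library lay far below the lowest control library. The call held without any 1 of the 6 libraries, at -2.17 to -1.82. Leukocyte markers moved the same way: 9 of 14 tested markers were lower and none higher, beside 10.5% of all tested genes lower. Their summed normalized counts, over the 14 markers with recovered counts, were 401 to 762 in Atg5-KD libraries and 1854 to 2535 in control libraries. Lyz2 and Cd68, the 2 most abundant of them, had log2 fold changes of -2.14 ± 0.32 and -1.09 ± 0.21 (SE) in the authors' deposited table, and no listed marker had a base mean of 0. The part of leukocyte RNA in the Mmp12 result was not tested, and in bulk RNA fewer cells of a type and less RNA per cell cannot be told apart.

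Mmp12 was the sole member among the 10 MMP genes clustered on mm10 chr9:7272514-7699585. There 7 of the 10 had any read, with base means at or under 2.61 for Mmp10, Mmp27, Mmp8, Mmp3, Mmp13 and Mmp1b. The collagenases and stromelysins of this cluster were thus near the detection limit in both groups.

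The remaining 6 MMPs did not pass the test. Mmp9, the other gelatinase, had 2, 10 and 4 reads in Atg5-KD libraries against 22, 24 and 20 in control libraries. The groups did not overlap in normalized counts, but its log2 fold change of -1.25 ± 0.64 (SE) in the authors' deposited table had an adjusted p of 0.163. It was at -2.04 without Atg5-KD library b and at -0.83 without Atg5-KD library a, and passed in neither case. Mmp17, anchored to the membrane by a lipid, had 17.4, 30.6 and 14.2 normalized counts in Atg5-KD, against 55.5, 27.6 and 39.4 in control, and overlapped through Atg5-KD library b. The authors' deposited table put its log2 fold change at -0.97 ± 0.42 (SE, adjusted p = 0.0858), and without Atg5-KD library b (-1.36) or control library b (-1.19) it passed. Mmp16 and Mmp19 had positive values of 0.52 ± 0.33 and 0.19 ± 0.20 in the authors' deposited table, with overlapping groups. Leaving out 1 library put Mmp16 between 0.27 and 0.86 and Mmp19 between 0.057 and 0.26, and Mmp19 turned to -0.11 scaled to all reads. Mmp24 and Mmp28 had base means under 10, and their intervals were wide.

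Among the ADAM genes, the sheddases of highest abundance did not pass the test. Adam10, the protease that cuts Notch and cadherins, was estimated at 2342 normalized counts in Atg5-KD and 2120 in control. Its log2 fold change of 0.14 ± 0.09 (SE) in the authors' deposited table has a 95% interval of -0.04 to 0.32. Adam17, which releases TNF and EGF-like ligands, was estimated at 1525 normalized counts in Atg5-KD and 1440 in control, with an interval of -0.11 to 0.27 around 0.08 in the authors' deposited table. Adam9 was estimated at 1559 in Atg5-KD and 1415 in control, with an interval of -0.06 to 0.33 around 0.14 in the same table. The signs of all 3 turn under scaling to all reads, to -0.16, -0.22 and -0.16 for Adam10, Adam17 and Adam9, and Adam17 is at -0.037 with the GC and length trend removed.

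The lower calls of the family were Adam19 and Adam33. Adam19, or meltrin beta, is a sheddase of neuregulin and had 112, 167 and 127 normalized counts in Atg5-KD libraries, against 312, 199 and 258 in control libraries. The groups did not overlap, and the authors' deposited table put its log2 fold change at -0.92 ± 0.21 (SE, adjusted p = 1.40e-04). It kept its call without any 1 library. Adam33, a related gene known from human airway mesenchyme, had 17, 32 and 13 reads in Atg5-KD libraries, against 65, 60 and 84 in control libraries. Atg5-KD library b lay close under the control libraries, at 40.8 normalized counts against 44.8 in control library b. The Adam33 log2 fold change was -0.97 ± 0.37 (SE, adjusted p = 0.0429) in the authors' deposited table. Its call was lost without Atg5-KD library a (-0.82), Atg5-KD library c (-0.77) or control library c (-0.78), with adjustment over all rows with a p-value (adjusted p = 0.0555), and with the GC and length trend removed (-0.75, adjusted p = 0.184).

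Adam15 had 756, 646 and 665 normalized counts in Atg5-KD libraries, against 892, 800 and 821 in control libraries, with no overlap. Its log2 fold change of -0.28 ± 0.11 (SE) in the authors' deposited table narrowly missed the threshold (adjusted p = 0.0597), and it passed without Atg5-KD library a (-0.35). Adam8 and Adam12 did not pass, at -0.43 ± 0.24 and -0.53 ± 0.51 in the authors' deposited table, and Adam12 was at -0.069 without control library a. Adam11, Adam22 and Adam23, the adhesion-type ADAMs of nerve cells that lack catalysis, had no call among them, with log2 fold changes of -0.34, -0.24 and 0.24 in the authors' deposited table. Adam22 turned to 0.10 without Atg5-KD library a. Adam23 was at 0.0054 without control library c and at 0.037 without Atg5-KD library a, and turned to -0.055 scaled to all reads.

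Both higher ADAM calls were genes known from male germ cells. Adam2 encodes fertilin beta of the sperm surface and lies on mm10 chr14:66027329-66077733. It had 46, 41 and 46 reads in the libraries labelled Atg5-KD, against 22, 18 and 20 reads in the deeper control libraries. This corresponded to 57.2, 52.3 and 65.5 normalized counts in Atg5-KD, against 16.1, 13.4 and 15.8 in control, so the groups were far apart. The authors' deposited table gave a log2 fold change of 1.95 ± 0.35 (SE, adjusted p = 8.83e-07), and the call held without any 1 library (1.86 to 2.02).

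Adam4, known from mouse testis, had 23, 33 and 20 reads in Atg5-KD libraries, against 23, 13 and 14 reads in the deeper control libraries. Its normalized counts averaged 33.1 ± 7.85 in Atg5-KD and 12.5 ± 3.77 in control (SD, n = 3 each), without overlap, and the log2 fold change was 1.40 ± 0.44 (SE, adjusted p = 0.0110) in the authors' deposited table. It was lost without Atg5-KD library b (1.19) or control library b (1.25). A processed pseudogene, Gm5746, matches 88.8% of the Adam4 transcript at 91.7% identity, so the gene of origin of its few reads is uncertain. Adam4 also lies inside the same-strand genes Cox16 and Gm20498, with 0 exon bases shared with either. Cox16 had a base mean of 143.9 and did not pass at 0.12 in the authors' deposited table. Adam1a, the fertilin partner of Adam2, did not pass at 0.14 ± 0.31 in the authors' deposited table, turned to -0.16 scaled to all reads, and 63.7% of its annotated exon bases are shared with the same-strand gene Gm42878. Of the 33 ADAM rows of the table, 13 had no read and 6 lay below the base mean limit. Of the oocyte markers, 0 of 6 tested were called, and the sums of the 7 markers with recovered counts were 85.4 to 125.5 normalized counts in Atg5-KD libraries and 82.1 to 111.0 in control libraries.

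**Figure D3:**
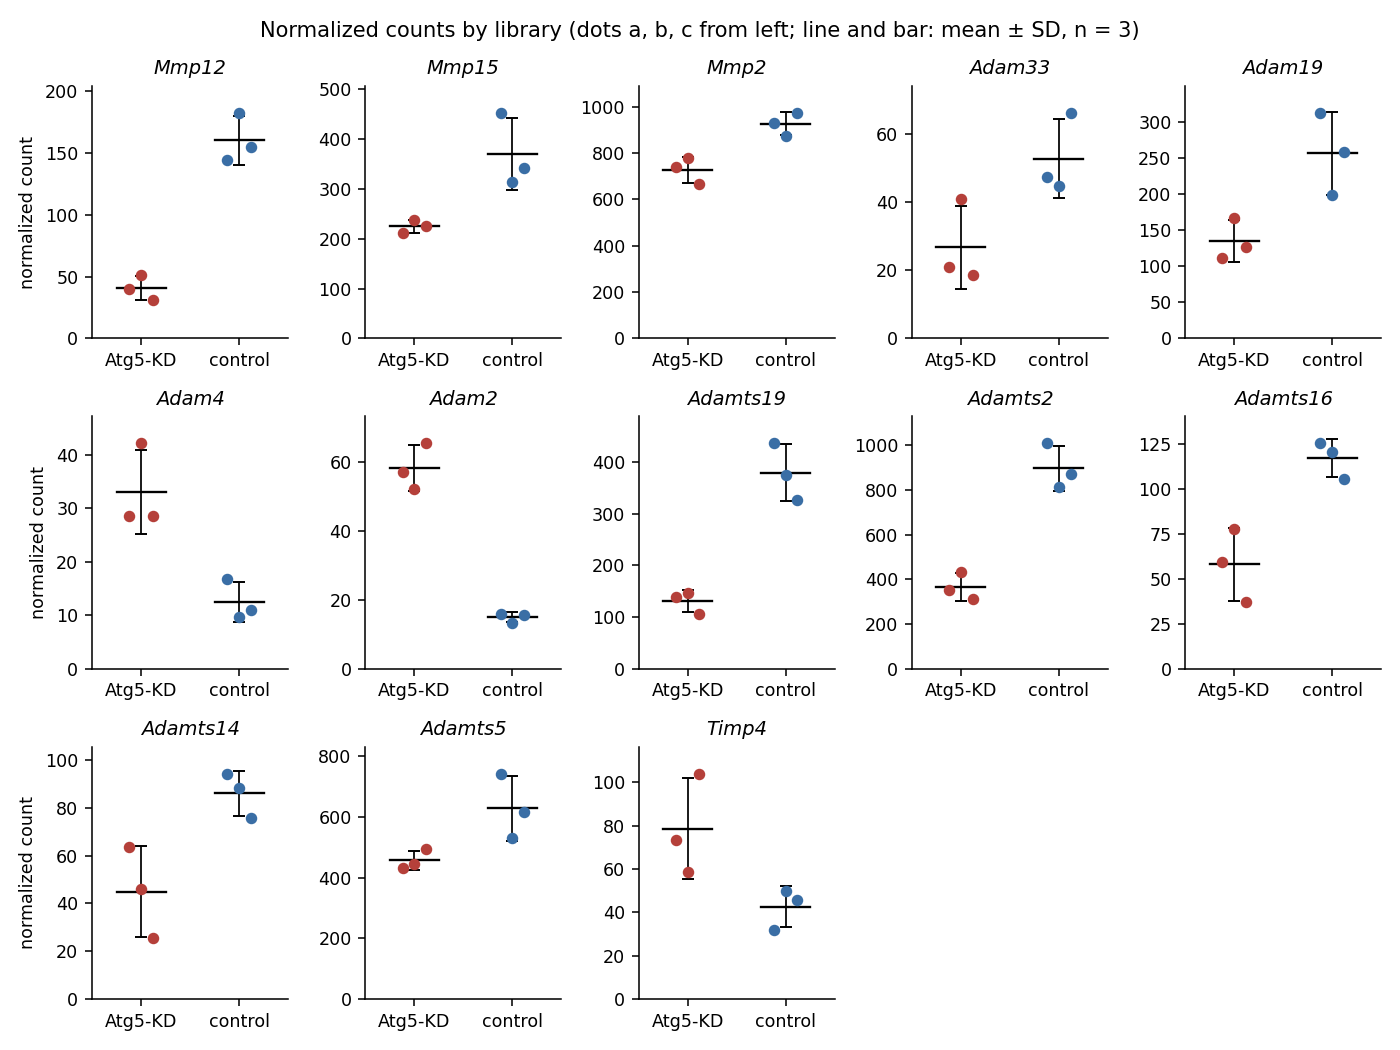
Normalized counts (y axis, from 0) of the 13 called members with recovered counts, 1 panel per gene, Atg5-KD left and control right. Dots are libraries a, b and c, lines are means and bars SD (n = 3); in each panel the groups do not overlap, with Adam2, Adam4 and Timp4 higher and the other 10 lower in Atg5-KD.

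Of the ADAMTS genes, the procollagen N-propeptidases include the call of smallest adjusted p. Adamts2, which trims the amino-terminal propeptide of fibrillar procollagens, had 352, 434 and 313 normalized counts in Atg5-KD libraries, against 1008, 813 and 870 in control libraries. Every control library lay far above every Atg5-KD library, and the authors' deposited table put its log2 fold change at -1.29 ± 0.14 (SE, adjusted p = 7.36e-18). It held without any 1 library (-1.43 to -1.19). Its relative Adamts14 had 63.4, 45.9 and 25.6 normalized counts in Atg5-KD libraries, against 94.2, 88.1 and 75.7 in control libraries. The groups did not overlap, but Atg5-KD library c was much lower than the others. The authors' deposited table gave Adamts14 a log2 fold change of -0.92 ± 0.30 (SE, adjusted p = 0.0134), which was no call without Atg5-KD library c (-0.65) or with the GC and length trend removed (-0.72, adjusted p = 0.0954). Adamts3, the third of these enzymes, did not pass at 0.16 ± 0.39 in the authors' deposited table, and turned to -0.14 scaled to all reads.

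Fibrillar collagen transcripts were lower beside these. Col1a1 had a log2 fold change of -1.10 ± 0.14 and Col1a2 one of -0.89 ± 0.13 (SE, adjusted p = 5.76e-13 and 1.96e-10), taken from the authors' deposited table. Both also stand among the markers of theca and stroma, of which 8 of 10 tested were lower, beside 10.5% of all tested genes. The 7 stroma markers with recovered counts summed to 856 to 1119 normalized counts in Atg5-KD libraries and 1377 to 1597 in control libraries. The smooth muscle and pericyte list had 8 of 9 lower, beside the same 10.5%, and its 7 genes with recovered counts summed to 1146 to 1367 in Atg5-KD and 2401 to 2666 in control. No marker on either list had a base mean of 0, though the theca enzyme gene Cyp17a1 was at 0.131, and the part of these cells in the ADAMTS and MMP results was not tested. Endothelial and surface epithelium markers had 0 of 8 called each, and granulosa markers 2 higher and 6 lower of 11, beside 10.4% of all tested genes higher and 10.5% lower.

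Adamts19, an ADAMTS with no well-established substrate, had the lowest fold change of its family. It had 139, 147 and 107 normalized counts in Atg5-KD libraries, against 436, 375 and 326 in control libraries. The groups were far apart, with a log2 fold change of -1.53 ± 0.18 (SE, adjusted p = 5.54e-16) in the authors' deposited table, and -1.63 to -1.41 without 1 library. Adamts16, known as a blood pressure gene in the rat, had 59.6, 77.8 and 37.0 normalized counts in Atg5-KD libraries, against 125.6, 120.9 and 105.6 in control libraries. Its groups did not overlap either, and the log2 fold change was -1.01 ± 0.26 (SE, adjusted p = 0.00123) in the authors' deposited table. Adamts10, which binds fibrillin, was estimated at 1230 normalized counts in Atg5-KD and 2382 in control, with -0.95 ± 0.12 (SE, adjusted p = 5.14e-14) in the authors' deposited table. Adamts17, a further fibrillin-linked enzyme, had 6, 3 and 1 reads in Atg5-KD and 6, 7 and 1 in control.

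Of the 3 proteoglycan-cleaving ADAMTS members, 1 was lower and none higher. Adamts1, which cuts versican, and Adamts4 were left out by name, and both were called higher. Adamts5, an aggrecanase that also cuts versican, had 432, 444 and 492 normalized counts in Atg5-KD libraries, against 741, 528 and 614 in control libraries. The groups did not overlap, and control library a stood highest. The authors' deposited table gave Adamts5 a log2 fold change of -0.46 ± 0.14 (SE, adjusted p = 0.00877), and without control library a the value of -0.32 was no call. With the GC and length trend removed, Adamts5 was at -0.81 (adjusted p = 4.07e-07). Adamts9, another versican-cleaving enzyme and the most abundant ADAMTS member by base mean, was estimated at 2299 normalized counts in Atg5-KD and 1939 in control. Its log2 fold change of 0.25 ± 0.12 (SE) in the authors' deposited table did not pass (adjusted p = 0.156), and scaling to all reads turns it to -0.053. Adamts15 had 4, 1 and 1 reads in Atg5-KD libraries and 8, 9 and 2 in control libraries.

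Adamts7 and Adamts12, known to cut cartilage oligomeric matrix protein, did not pass, although Adamts7 had 331, 308 and 326 normalized counts in Atg5-KD libraries, all below the 485, 348 and 383 of control libraries. The authors' deposited table put its log2 fold change at -0.34 ± 0.15 (SE, adjusted p = 0.103), and it passed without control library b (-0.44) but was at -0.19 without control library a. Adamts12 and Adamts6 overlapped between groups. At the base mean limit, Adamts15 stood just inside at 3.63 and Adamts20 just outside at 3.16 in the authors' deposited table.

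Of the 4 TIMPs, 2 were higher and 1 lower. Timp1, the soluble inhibitor induced by many cytokines, was estimated at 1572 normalized counts in Atg5-KD and 1091 in control, and the authors' deposited table put its log2 fold change at 0.53 ± 0.14 (SE, adjusted p = 0.00161). Scaled to all reads it was 0.23 and no call (adjusted p = 0.180). Timp4, the TIMP of most restricted expression, had 59, 46 and 73 reads in the libraries labelled Atg5-KD, against 44, 67 and 58 reads in the deeper control libraries. This made 78.6 ± 23.1 normalized counts in Atg5-KD and 42.6 ± 9.34 in control (SD, n = 3 each), and the lowest Atg5-KD library, at 58.7, was above every control library. The authors' deposited table gave Timp4 a log2 fold change of 0.88 ± 0.30 (SE, adjusted p = 0.0192). It was no call without Atg5-KD library c (0.63), without control library a (0.71), or scaled to all reads (0.58, adjusted p = 0.104).

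Timp2, which takes part in the activation of the Mmp2 product, was estimated at 2044 normalized counts in Atg5-KD and 2568 in control. It had a log2 fold change of -0.33 ± 0.10 (SE, adjusted p = 0.00700) in the authors' deposited table, and -0.24 (adjusted p = 0.0892) with the GC and length trend removed. Timp3, the matrix-bound inhibitor that also acts on ADAM17 and aggrecanases, was estimated at 2710 in Atg5-KD and 2648 in control. Its 95% interval ran from -0.15 to 0.22 around 0.03 in the authors' deposited table, but scaled to all reads it was -0.27 and called lower (adjusted p = 0.0153), and -0.039 with the GC and length trend removed.

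Of the 4 TIMP genes, 3 lie inside a synapsin gene on the opposite strand in the mm10 annotation, Timp1 in Syn1, Timp4 in Syn2 and Timp3 in Syn3. Timp1 shares no exon bases with Syn1, Timp4 shares 90 with Syn2, and Timp3 shares 1733, which is 21.3% of its annotated exon bases, with Syn3. Synapsins coat synaptic vesicles. Syn1 was higher in the authors' deposited table at 0.94 ± 0.28 (SE, adjusted p = 0.00573), with a base mean of 57.2, while Syn2 and Syn3 did not pass at 0.10 and 0.40. Without stated strand use, reads over shared bases cannot be told apart.

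**Figure D4:**
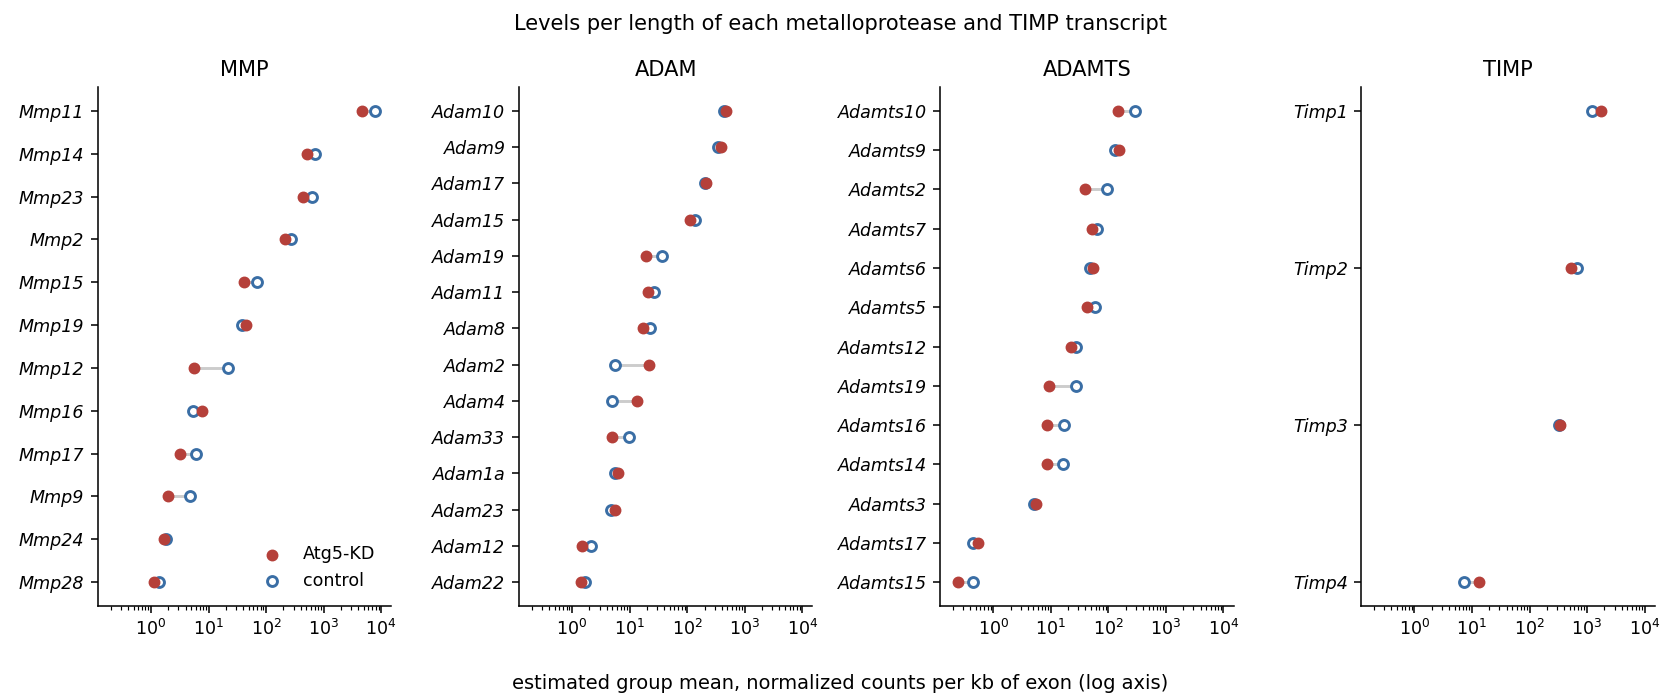
Estimated group means of each member in normalized counts per kb of annotated exon (x axis, log), by family and ordered by level, Atg5-KD filled and control open. Mmp11 is highest at 4694 in Atg5-KD and 7915 in control, Timp1 is the highest TIMP, and the ADAM sheddases Adam10, Adam9 and Adam17 show near-equal pairs.

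Set per length, Mmp11 was the highest member, at 4694 normalized counts per kb of annotated exon in Atg5-KD and 7915 in control. Timp1 followed in both groups, at 1770 in Atg5-KD and 1228 in control. As a share of the summed level per kb over all 43 members, Mmp11 was 44.95% in Atg5-KD and 57.0% in control, and the 4 TIMPs were 25.3% in Atg5-KD and 16.0% in control. Part of the higher TIMP share follows from the lower Mmp11 level in the sum. The 4 TIMPs summed to 2641 per kb in Atg5-KD and 2220 in control. Without division by length they summed to 6404 normalized counts in Atg5-KD and 6350 in control. The 11 other MMPs summed to 1273 per kb in Atg5-KD and 1748 in control, the ADAM genes to 1292 in Atg5-KD and 1233 in control, and the ADAMTS genes to 543 in Atg5-KD and 778 in control. These sums rest on estimated group means and have no replicate error.

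Across the 32 members with recovered counts, groups did not overlap in all 13 called members and in 3 of the 19 without a call. The calls rest on the same counts, and the share of all tested genes whose groups do not overlap was not computed; 20.9% of them were called. Those 3 were Mmp9, Adam15 and Adamts7. Library a was the highest control library for 21 of the 32 members and for 43 of 103 other list genes. Among the Atg5-KD libraries, b was the highest for 18 of 32 members and for 38 of 103 list genes. The median coefficient of variation between libraries was 24.1% in Atg5-KD and 19.7% in control for 9 MMPs, 23.7% in Atg5-KD and 14.6% in control for 11 ADAM genes, and 16.8% in both groups for 11 ADAMTS genes.

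**Figure D5:**
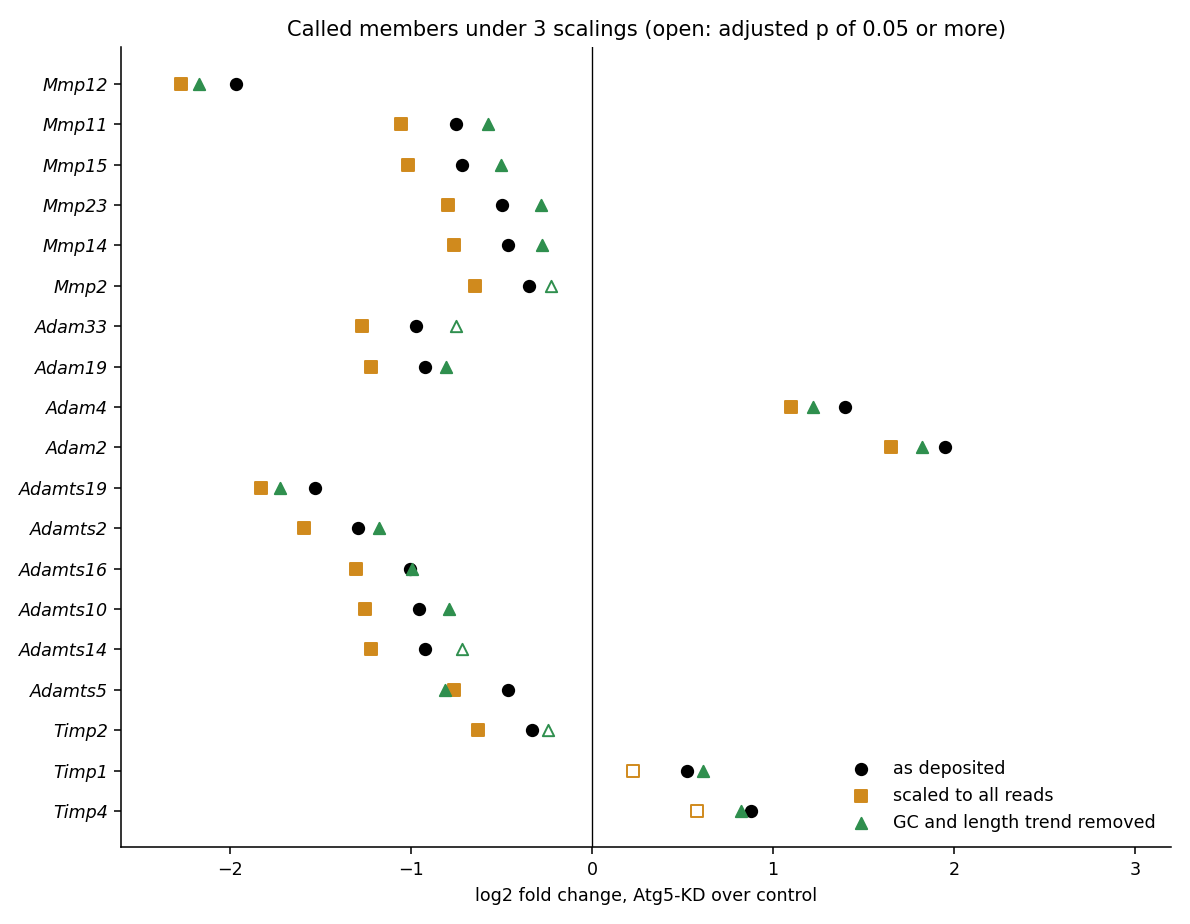
Log2 fold changes (Atg5-KD over control, x axis) of the 19 called members as deposited, scaled to all reads, and with the trend on GC content and length removed. Open symbols missed the threshold: Timp1 and Timp4 when scaled to all reads, and Mmp2, Adam33, Adamts14 and Timp2 with the trend removed; no called member changes sign.

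The genes that activate MMPs were looked at next. In the list of MMP activation and the plasminogen system, 0 of 11 tested genes were higher and 3 lower, with a median log2 fold change of -0.27. Of all tested genes 10.4% were called higher and 10.5% lower, and the counts of the other pathway lists stand beside the same shares. Plau, the urokinase that makes plasmin, was estimated at 4063 normalized counts in Atg5-KD and 6083 in control, with a log2 fold change of -0.58 ± 0.09 (SE, adjusted p = 4.29e-10) in the authors' deposited table. Serpine2, an inhibitor of urokinase and plasmin, was lower too at -0.89 ± 0.10 (SE, adjusted p = 4.70e-17) in the authors' deposited table. Bsg, which induces MMPs in neighbouring cells, was lower at -0.27 ± 0.10 (SE, adjusted p = 0.0460) in the authors' deposited table. Furin, which cuts the precursors of Mmp11 and Mmp14, did not pass at -0.23 ± 0.11 in the authors' deposited table. A list of inhibitors and clearance receptors outside the TIMPs, which also holds Pcolce, had 0 of 8 tested genes higher and 2 lower. The broad protease inhibitor A2m was lower at -1.03 ± 0.38 (SE) in the authors' deposited table. The other lower gene was Pcolce, which is no inhibitor or clearance receptor but enhances procollagen C-proteinase, at -0.25 ± 0.09 (SE) in the authors' deposited table.

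Partners and substrates of the ADAM sheddases moved in both directions. Of 8 maturation partners of ADAM10 and ADAM17, 2 were higher and 2 lower. The iRhoms, which carry ADAM17 to the cell surface, were opposed, with Rhbdf2 at 0.40 ± 0.10 and Rhbdf1 at -0.50 ± 0.12 (SE) in the authors' deposited table. The tetraspanins that escort ADAM10 were likewise opposed, with Tspan5 at 0.38 ± 0.12 and Tspan14 at -0.37 ± 0.12 (SE) in the authors' deposited table. Among 6 tested EGF-family ligands that ADAM proteases release, 2 were higher and 1 lower. Ereg, the epiregulin of ovulating follicles, was estimated at 117.6 normalized counts in Atg5-KD and 59.1 in control, a log2 fold change of 0.99 ± 0.24 (SE, adjusted p = 5.38e-04) in the authors' deposited table. Nrg1 was higher at 0.51 ± 0.15 and Hbegf lower at -0.72 ± 0.25 (SE) in the authors' deposited table. Of 13 other ADAM substrates 3 were higher and none lower, a share near the 20.9% of all tested genes called in either direction. These were Kitl, the ligand that granulosa cells show to the oocyte's Kit receptor, at 0.78 ± 0.16, Sdc4 at 0.35 ± 0.09 and Cdh2 at 0.28 ± 0.10 (SE) in the authors' deposited table.

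Of the proteoglycan and fibrillar substrates, 1 of 14 tested genes was higher and 7 lower, with a median of -0.43. The exception was Vcan, encoding versican of the expanding cumulus matrix, estimated at 721 normalized counts in Atg5-KD and 272 in control, with 1.41 ± 0.18 (SE, adjusted p = 1.43e-13) in the authors' deposited table. The lower genes included the proteoglycan gene Bgn at -0.98 ± 0.13 (SE) in the authors' deposited table, beside the collagens given above. Of 6 other metzincins, Pappa, which cuts IGF-binding protein, was higher at 1.28 ± 0.20 (SE), and Bmp1, the procollagen C-proteinase, lower at -0.59 ± 0.09 (SE), in the authors' deposited table. None of the 5 tested ADAMTS-like genes was called, with Adamtsl4 at 0.33 ± 0.15 and Thsd4 at -0.34 ± 0.16 (SE) in the authors' deposited table.

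Adamts1 and Adamts4, the 2 ADAMTS genes left out of the members by name, were both called higher, and none of the 13 ADAMTS members was. Adamts4 had 221, 236 and 295 normalized counts in Atg5-KD libraries, against 182, 148 and 184 in control libraries, with no overlap. Adamts1, a protease induced at ovulation that cuts versican, was at 0.99 ± 0.12 and Adamts4 at 0.55 ± 0.17 (SE) in the authors' deposited table.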

How the data were processed

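RNA of 6 libraries was compared, 3 labelled Atg5-KD and 3 labelled control. DESeq2 1.30.1, featureCounts 1.6.2, STAR, StringTie 2.1.4 and the mouse build mm10 appear, without role or order, in the submitters' processing notes. The single table used holds no values per library. Its base mean is a signal made by the authors from read counts divided by size factors, per the file headers' DESeq2 column names. The authors also deposited a log2 fold change with its standard error on the log2 scale, a Wald statistic, which is a score, and a p-value and adjusted p-value. The number of columns of unmapped samples is 0.

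A gene was called at a deposited adjusted p under 0.05. The statistic, p-value and adjusted p-value were recomputed, and 0 rows differed at a tolerance of 1e-06. Read counts were recovered here for base means under 1000: rows with 1 read in 1 library gave the size factors, and whole counts were solved from the base mean and kept where a negative binomial refit returned the deposited fold change. Searches from a base mean of 150 were limited to libraries at 0.5 to 1.7 times an even share. A single solution was found for 2354 of 2366 rows of base mean 3.3 to 20. Leaving out a library refitted these counts with the dispersion held, and a call needed p of at most 0.0104, the largest called p. The Wald calling and the recovery of counts were tested on simulated data, but the refit without a library was not.

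Members and lists were chosen with earlier results of these data known. Named genes were all called members, all TIMPs, the 3 most abundant members of the other families, those beside the base mean limit, and up to 4 called or else 2 abundant genes per list. Other genes were named after their values were seen. Alternatives were scaling to all reads, centring on the median gene, adjustment over all rows with a p, a base mean of 50, an adjusted p of 0.01, a fold of 1.5, and removal of a GC content and length trend. Lengths and overlaps come from GENCODE vM21 and promoters from RefSeq. Similar transcripts were sought with blastn 2.17.0 (at least 90% identity over 200 bases). Python 3.11.15, NumPy 2.4.6, pandas 2.3.3, SciPy 1.17.1 and statsmodels 0.14.6 were used.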

Additional observations from a re-analysis of the deposited data

How the results depend on the processing

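Of the 19 calls, 17 were kept scaled to all reads, 19 centred on the median gene, 18 with adjustment over all rows with a p, 14 at an adjusted p under 0.01, 13 with a 1.5-fold limit and 15 with the GC and length trend removed. Scaled to all reads, the medians were -0.78 for MMP, -0.38 for ADAM, -0.76 for ADAMTS and -0.019 for TIMP genes, with 5 ADAM genes lower, 0 TIMPs higher and 2 lower. The signs of 10 members with no call as deposited turned: Adam10 (-0.16), Adam17 (-0.22), Adam9 (-0.16), Adam1a (-0.16), Adam23 (-0.055), Adamts3 (-0.14), Adamts6 (-0.15), Adamts9 (-0.053), Mmp19 (-0.11) and Timp3 (-0.27). With the trend removed, 1 ADAM gene and 0 TIMPs were lower, the ADAMTS median was -0.72, and Adam17 turned to -0.037, Timp3 to -0.039, Adamts6 to -0.045 and Mmp24 to 0.035. All MMPs called as deposited had smaller decreases with the trend removed, except Mmp12 (-2.17). Median GC content was 56.4% over the MMP members and 50.2% over all tested genes. Adjustment over all rows left 1 ADAM gene lower. At a base mean of 50 or more, 0 ADAM genes were higher, 1 lower, and the ADAMTS median was -0.69. At an adjusted p under 0.01, 1 ADAM gene was higher and 1 lower, and 1 TIMP higher. The 1.5-fold limit left 3 MMPs lower, 1 TIMP higher and 0 TIMPs lower. Scaling to all reads moved every log2 fold change by the same -0.30, so its turned signs, lower medians and changed calls follow from that shift. The total behind the shift includes Rn45s, which took 17.9% of it in Atg5-KD and 1.17% in control. A shift without Rn45s was not computed. The stricter limits act by their own construction. The cause of the other changes was not tested.

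Leaving out 1 library was possible for the 13 called members with recovered counts. Of these 7 kept their call in every case (Mmp12, Mmp15, Adam2, Adam19, Adamts2, Adamts16 and Adamts19), and 6 lost it in 1 to 3 of 6 cases. Of the 19 without a call, all but Adam15 and Mmp17 moved by over 1.5 times in at least 1 case, and the signs of Adam22, Adamts3, Adamts17, Mmp24 and Mmp28 turned. No paired analysis was possible because the recovered libraries carry no label numbers. Members of few reads are limited by depth: the 13 members of base mean under 50 had a median standard error of 0.45, against 0.11 at 500 or more.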
